A study of Mus musculus with 8 samples.

Results

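The genes described here carry or limit cyclic AMP (cAMP) signalling in medium spiny neurons, the projection neurons that make up most of the striatum. A list of 9 genes was taken (Gnal, Adcy5, Adora2a, Pde10a, Pde1b, Ppp1r1b, Rgs9, Rgs2 and Rgs4), and a gene was measured where a probe set of the array was annotated with that symbol alone. This gave 8 of the 9 genes, with 1 probe set each, out of 19938 genes annotated in this way on the array. Adora2a, which encodes an adenosine receptor, was not analysed here. All 8 probe sets passed the filter on low values.

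Expression was measured in bilateral striatal tissue of 8 adult male C57BL/6 mice, an inbred strain, with 1 whole-transcript array per mouse and 2 mice in each of 4 groups. Acupoint mice received MPTP and 14 sessions of needling 48 h apart, with needles entering 3 mm at the point GB34 and 1 mm at the point LR3. Non-acupoint mice received MPTP and the same sessions of needling at both hips (3 mm deep). MPTP mice received MPTP alone, at 20 mg/kg every 24 h for 4 weeks as in the needled groups, and control mice received saline by the same route and schedule. The mice were 6 weeks old, and the labels describe no genetic change in any group. MPTP is a neurotoxin that damages dopamine neurons and is used to model parkinsonism. Dopamine axons reach the striatum from cell bodies that lie outside it, so none of the 8 genes marks those axons themselves. In bulk tissue, fewer medium spiny neurons, less of an RNA in each neuron and less striatum in the sample cannot be told apart.

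In these neurons the D1 dopamine receptor and the adenosine receptor encoded by Adora2a act through the G protein Gαolf, which stimulates adenylyl cyclase to make cAMP. The D2 dopamine receptor acts through inhibitory G proteins and opposes this. Cyclic AMP activates protein kinase A, which phosphorylates DARPP-32 and turns it into an inhibitor of protein phosphatase 1. Phosphodiesterases break the second messenger down, and RGS proteins shorten the active state of G proteins. The pathway is a main route by which dopamine acts on the striatum, and mutations of the human genes for Gαolf and adenylyl cyclase 5 cause movement disorders.

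The promoters of the 3 RGS genes are shown first. The windows are the 250 bases before the RefSeq start site (build GRCm38.p6), 5′ to 3′ on the strand of the gene. Capitals mark the letters TGACG or their reverse complement CGTCA, the core of the cAMP response element that CREB binds.
Rgs9 (chr11:109298182-109298431, minus strand): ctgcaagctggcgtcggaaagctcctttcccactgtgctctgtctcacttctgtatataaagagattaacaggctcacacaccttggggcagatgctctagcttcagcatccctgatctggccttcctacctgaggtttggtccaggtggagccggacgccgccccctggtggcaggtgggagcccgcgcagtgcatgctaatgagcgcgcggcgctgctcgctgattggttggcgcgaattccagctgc
Rgs2 (chr1:144004150-144004399, minus strand): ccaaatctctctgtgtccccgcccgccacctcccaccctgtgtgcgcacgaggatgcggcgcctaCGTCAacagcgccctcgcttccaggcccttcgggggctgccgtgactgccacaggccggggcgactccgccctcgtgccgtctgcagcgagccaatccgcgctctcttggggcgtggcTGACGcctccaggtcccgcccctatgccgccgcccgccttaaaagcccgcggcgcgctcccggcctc
Rgs4 (chr1:169747643-169747892, minus strand): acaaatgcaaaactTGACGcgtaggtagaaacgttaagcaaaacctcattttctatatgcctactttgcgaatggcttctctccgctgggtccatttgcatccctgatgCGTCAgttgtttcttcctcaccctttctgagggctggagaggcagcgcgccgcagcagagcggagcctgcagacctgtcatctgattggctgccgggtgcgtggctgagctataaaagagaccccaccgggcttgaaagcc
Rgs2 held 2 such matches, beginning 185 and 67 bases before the start site, and Rgs4 held 2, beginning 236 and 141 bases before it. Windows were used for 6 of the genes (9 windows, with Adcy5, Pde10a and Pde1b), and the TGACG core was found in those of Rgs2 and Rgs4. The full palindrome TGACGTCA, which contains 2 overlapping copies of the core, was found in 0 of the 9. Of all 32851 mouse promoter windows of this length, searched on both strands, 17.8% held the core and 1.55% the full one. These matches describe letters in a window and say nothing of binding, and their relation to the array values was not tested.

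Across the 8 arrays the members varied together. MPTP mouse 1 had the lowest value for 7 of the 8 genes, and non-acupoint mouse 2 had the second lowest value for 7. The highest value was that of acupoint mouse 2 for 4 genes and of MPTP mouse 2 for the other 4. The 2 controls lay close to each other, with differences from 0.02 (Pde1b) to 0.10 (Rgs2) on the log2 scale. The values are log2 intensities after robust multi-array averaging (RMA), so that a difference of 1 is a doubling, and they are compared within a gene and not between genes.

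**Figure D1:**
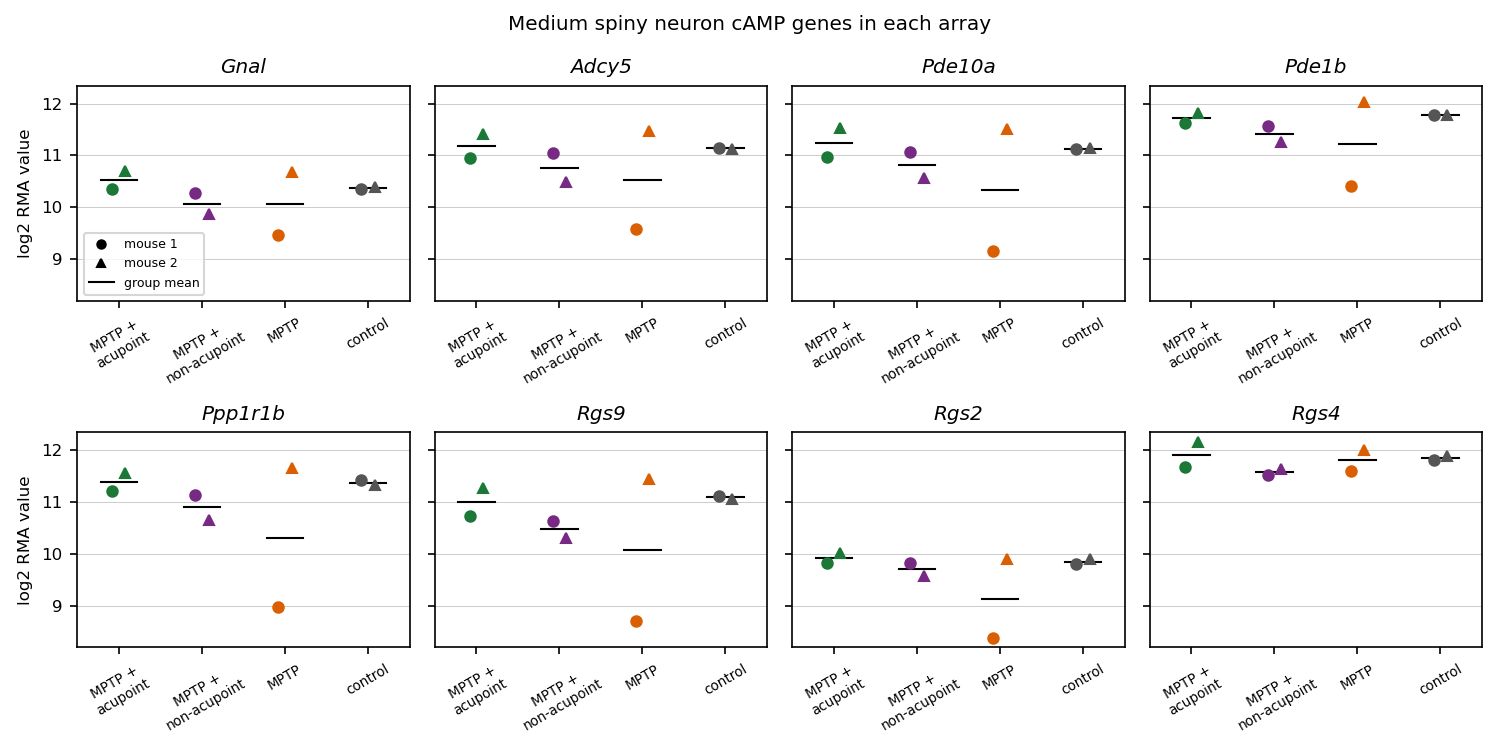
Log2 RMA value (y axis) of each of the 8 genes in the 4 groups (x axis), with 1 point per mouse and a bar at the group mean. MPTP mouse 1 lies far below the other arrays except for Rgs4, while MPTP mouse 2 lies at or above the controls.

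Gnal encodes Gαolf, the stimulatory G protein that couples D1 dopamine and adenosine receptors to adenylyl cyclase in the striatum. Its log2 values were 10.36 and 10.69 in acupoint mice, 10.27 and 9.87 in non-acupoint mice, 9.46 and 10.68 in MPTP mice, and 10.36 and 10.38 in controls. The 2 MPTP mice lay on either side of the controls, whereas both non-acupoint mice lay below both controls.

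Adcy5, the main adenylyl cyclase of medium spiny neurons, had log2 values of 10.96 and 11.41 in acupoint mice, 11.04 and 10.48 in non-acupoint mice, 9.58 and 11.46 in MPTP mice, and 11.15 and 11.13 in controls. MPTP mouse 1 was 2.94-fold lower than the control mean, and MPTP mouse 2 was 1.25-fold higher. Both non-acupoint mice were below both controls, and the acupoint mice lay on either side of them.

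Pde10a encodes a phosphodiesterase that hydrolyses cAMP and cGMP and is concentrated in medium spiny neurons. Its log2 values were 10.97 and 11.52 in acupoint mice, 11.07 and 10.57 in non-acupoint mice, 9.15 and 11.51 in MPTP mice, and 11.12 and 11.14 in controls. The low MPTP array was 3.96-fold below the control mean, while the other was 1.30-fold above it.

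Pde1b, a phosphodiesterase activated by calcium and calmodulin, had log2 values of 11.62 and 11.82 in acupoint mice, 11.56 and 11.27 in non-acupoint mice, 10.41 and 12.03 in MPTP mice, and 11.77 and 11.79 in controls. MPTP mouse 1 was the lowest array and MPTP mouse 2 the highest. The needled groups spanned less than the MPTP group, with ranges of 0.20 in acupoint mice, 0.30 in non-acupoint mice and 1.62 in MPTP mice.

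Ppp1r1b encodes DARPP-32, the phosphoprotein through which protein kinase A inhibits protein phosphatase 1. It had log2 values of 11.21 and 11.55 in acupoint mice, 11.14 and 10.65 in non-acupoint mice, 8.97 and 11.65 in MPTP mice, and 11.42 and 11.32 in controls. MPTP mouse 1 stood at -2.40 relative to the control mean on the log2 scale, or 5.26-fold lower, the widest gap of any member in any array. Non-acupoint mouse 2 was 1.65-fold lower and MPTP mouse 2 was 1.21-fold higher.

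Rgs9, whose striatal splice form limits dopamine receptor and opioid receptor signalling, had log2 values of 10.74 and 11.28 in acupoint mice, 10.64 and 10.30 in non-acupoint mice, 8.71 and 11.44 in MPTP mice, and 11.11 and 11.06 in controls. MPTP mouse 1 was 5.21-fold below the control mean. Rgs9 was also the member furthest below the control mean in acupoint mouse 1 (-0.35) and in both non-acupoint mice (-0.45 and -0.78). By distance over the arrays (the root mean square of the log2 differences, each gene set to its control mean), Rgs9 and Ppp1r1b were the closest pair of members, at 0.11. Without MPTP mouse 1 their distance was 0.12, and the closest pair was Adcy5 and Pde10a, at 0.06.

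Rgs2, an inducible RGS protein that acts mainly on Gq, had log2 values of 9.83 and 10.01 in acupoint mice, 9.83 and 9.57 in non-acupoint mice, 8.38 and 9.89 in MPTP mice, and 9.79 and 9.89 in controls. MPTP mouse 1 was 2.75-fold below the control mean, and the other arrays lay between -0.27 and 0.17 relative to that mean.

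Rgs4, an RGS protein of Gi and Gq that is also abundant in cortex and thalamus, had log2 values of 11.67 and 12.15 in acupoint mice, 11.53 and 11.64 in non-acupoint mice, 11.60 and 11.995 in MPTP mice, and 11.81 and 11.88 in controls. It was the member with the smallest gap in MPTP mouse 1, at -0.24 or 1.18-fold lower, and non-acupoint mouse 1 was its lowest array. Both non-acupoint mice lay below both controls for this gene too. Its distance to the mean profile of the members was 0.48, against 0.06 for Adcy5, the member nearest to that profile, and 0.33 for Rgs9. Over the 7 arrays without MPTP mouse 1 these distances were 0.14 for Rgs4, 0.07 for Adcy5 and 0.16 for Rgs9.

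**Figure D2:**
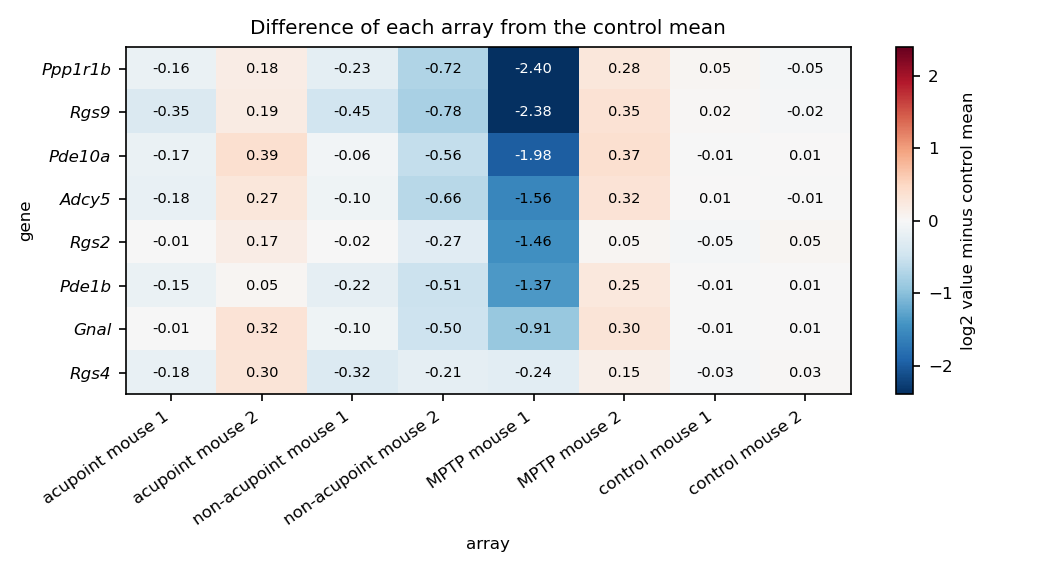
Log2 value minus the control mean for each gene (rows, ordered by MPTP mouse 1) in each array (columns), with the value printed in each cell and blue for values below the control mean. The column of MPTP mouse 1 runs from -2.40 for Ppp1r1b to -0.24 for Rgs4, and the column of non-acupoint mouse 2 from -0.78 for Rgs9 to -0.21 for Rgs4.

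Markers of the medium spiny neurons moved with the members in the same arrays, while lists for other tissues had profiles of their own. Relative to the control mean, the 8 members averaged -0.15 and 0.23 in acupoint mice 1 and 2, -0.19 and -0.53 in non-acupoint mice 1 and 2, and -1.54 and 0.26 in MPTP mice 1 and 2. A list of 22 measured medium spiny neuron markers, none of them a member, averaged -0.13 and 0.24 in acupoint mice, -0.10 and -0.47 in non-acupoint mice, and -1.58 and 0.34 in MPTP mice. All 22 were above the filter on low values, so the defining genes of these neurons were measured in the tissue. Bcl11b, a transcription factor of these neurons, had log2 values of 9.06 and 9.74 in acupoint mice, 9.26 and 8.81 in non-acupoint mice, 7.31 and 9.74 in MPTP mice, and 9.50 and 9.41 in controls. In MPTP mouse 1, 21 of the 22 markers lay below both controls, while Foxp2 and Six3 were within 0.02 of their control means there.

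Thalamus and habenula markers ran the other way. Their 16 probe sets averaged 0.63 and -0.06 in acupoint mice, 0.19 and 1.43 in non-acupoint mice, and 2.29 and -0.49 in MPTP mice, and all 16 lay above both controls in MPTP mouse 1, non-acupoint mouse 2 and acupoint mouse 1. Choroid plexus markers (11 probe sets) averaged 2.50 and 0.15 in acupoint mice, 2.30 and 2.98 in non-acupoint mice, and 2.32 and -0.19 in MPTP mice. In the 4 arrays where the plexus markers averaged above 2, the members averaged -0.15 (acupoint mouse 1), -0.19 and -0.53 (non-acupoint mice 1 and 2) and -1.54 (MPTP mouse 1). The members averaged 0.23 in acupoint mouse 2 and 0.26 in MPTP mouse 2. Ttr, the main secreted protein of the choroid plexus, had log2 values of 13.42 and 9.98 in acupoint mice, 13.20 and 13.49 in non-acupoint mice, 13.39 and 8.12 in MPTP mice, and 8.63 and 8.88 in controls. Cortex markers (10 probe sets) averaged -0.49 and -0.36 in acupoint mice, -0.65 and -0.31 in non-acupoint mice, and -0.73 and 0.02 in MPTP mice. They were split in MPTP mouse 1, with 7 below both controls and 3 above, from Lamp5 at -2.35 to Cux2 at 0.97. The mean of 11 pan-neuronal markers lay between -0.13 and 0.25 in the arrays, and in MPTP mouse 1 their median was 0.37, with 8 above both controls and 3 below. Counts of markers beyond both controls were not made over all tested probe sets. The part of these markers in the differences below was not tested. In 1 fit the mean of the thalamus markers was a covariate. That mean ran opposite to the members (2.29 against -1.54 in MPTP mouse 1, 1.43 against -0.53 in non-acupoint mouse 2). The list was also chosen with earlier results of these data known. A smaller difference in that fit therefore does not show the part of the markers.

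**Figure D3:**
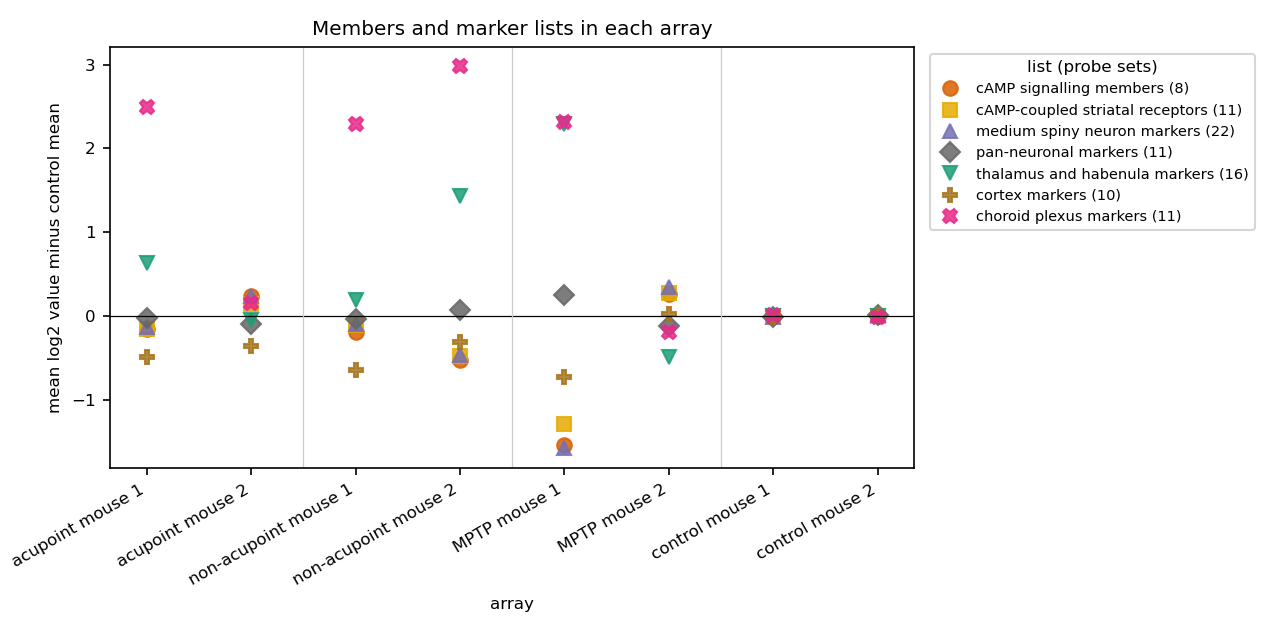
Mean log2 value minus the control mean (y axis) of the members and of 6 other gene lists in each array (x axis), with 1 point per list. The members, their receptors and the medium spiny neuron markers lie close together in each array, at -1.54, -1.29 and -1.58 in MPTP mouse 1, where the thalamus markers stand at 2.29.

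MPTP against control asks whether these RNAs differed after MPTP. Loss of dopamine input was not measured here. All 8 members had lower group means in MPTP mice than in controls, but the 2 MPTP mice lay on opposite sides of the control mean for every member. The groups overlapped for all 8, where 12.1% of all tested probe sets were lower and 17.3% higher in MPTP mice with no overlap. Ppp1r1b averaged 10.31 ± 1.89 in MPTP mice and 11.37 ± 0.07 in controls (SD, n = 2 each), a log2 difference of -1.06 (SE 0.74, limma adjusted p = 0.932). Rgs9 averaged 10.07 ± 1.93 in MPTP mice and 11.09 ± 0.03 in controls, a difference of -1.02 (SE 0.76). The differences were -0.80 for Pde10a, -0.71 for Rgs2, -0.62 for Adcy5, -0.56 for Pde1b, -0.30 for Gnal and -0.05 for Rgs4. Their median was -0.66, against 0.01 over all tested probe sets.

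Limma called 0 of the 8 members at an adjusted p under 0.05, with 0 at an unadjusted p under 0.05, where it called 0% of the 16342 tested probe sets and 3.99% had an unadjusted p under that value. Without MPTP mouse 1 the median was 0.29 and 0 members were called. Without MPTP mouse 2, which leaves the low array alone in its group and lends it the spread of the others, the median was -1.51 and 7 members were called, all but Rgs4. In that fit the difference for Ppp1r1b was -2.40 (adjusted p = 0.00298) and 1607 probe sets were called in all (9.83%). With the mean of the thalamus markers as a covariate over all 8 arrays, the median was -0.10, with Ppp1r1b at -0.29 and Rgs9 at -0.24, and 0 members were called.

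Acupoint needling against MPTP alone, and non-acupoint needling against MPTP alone, both rest on the same MPTP mice. All 8 members had higher means in acupoint mice than in MPTP mice, by 0.11 (Rgs4) to 1.07 (Ppp1r1b) with a median of 0.72. Of the members, 7 had higher means in non-acupoint mice than in MPTP mice, the exception being Rgs4 at -0.22. The differences there reached 0.58 for Ppp1r1b, with a median of 0.32, and Gnal differed by less than 0.01. The groups overlapped for all 8 members in both comparisons, where 8.41% and 15.4% of all tested probe sets were higher than in MPTP mice with no overlap and 18.9% and 17.7% lower, and limma called 0 members in either, with adjusted p-values from 0.902 to 0.932 and from 0.789 to 1. It called 0% of all tested probe sets in each, and 0 members had an unadjusted p under 0.05, against 3.6% and 6.58% of all tested probe sets.

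The direction of both comparisons turned on MPTP mouse 1. Without it the median difference of the members was -0.26 for acupoint and -0.65 for non-acupoint mice, and 7 and 8 of the 8 members were lower than in MPTP mouse 2. Without MPTP mouse 2, again with a single array in that group, the medians were 1.57 and 1.25. Limma then called 7 and 6 members, and 8.89% and 4.86% of all tested probe sets (1453 and 794). With the thalamus covariate over all 8 arrays the medians were 0.34 and 0.25.

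Acupoint against non-acupoint needling asks whether the site of the needle mattered. Every member had a higher mean in acupoint mice, and for 6 of the 8 both acupoint mice lay above both non-acupoint mice, where 13.9% of all tested probe sets did so and 24.6% were lower with no overlap. The exceptions were Adcy5 and Pde10a, for which acupoint mouse 1 lay below non-acupoint mouse 1. Rgs9 averaged 11.01 ± 0.38 in acupoint mice and 10.47 ± 0.23 in non-acupoint mice (SD, n = 2 each), and Gnal averaged 10.52 ± 0.23 in acupoint mice and 10.07 ± 0.28 in non-acupoint mice. The differences ran from 0.22 (Rgs2) to 0.54 (Rgs9), with a median of 0.42 against -0.03 over all tested probe sets. Medium spiny neuron markers had a median of 0.37 in this comparison, and 9 of the 22 were higher with no overlap. Limma called 0 members and 0% of all tested probe sets, with adjusted p-values of the members from 0.964 to 0.965. Of the members, 0 had an unadjusted p under 0.05, against 3.22% of all tested probe sets. When only these 4 arrays were fitted, 3 members had an unadjusted p under 0.05, as did 5.07% of all tested probe sets, and 0 were called (adjusted p = 0.753 for each). Leaving out 1 array moved the median to 0.20 without acupoint mouse 2 and to 0.67 without non-acupoint mouse 1. Thalamus markers averaged 0.63 and -0.06 in acupoint mice and 0.19 and 1.43 in non-acupoint mice, and when the fit took their mean as a covariate the median difference was 0.06.

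Against controls, the acupoint group showed differences on both sides of 0, and the non-acupoint group stood below. Both comparisons share the control mice. In acupoint mice 6 members had higher means than in controls and 2 lower, from -0.08 (Rgs9) to 0.15 (Gnal) with a median of 0.05, and acupoint mouse 1 and mouse 2 lay on opposite sides of the control mean for all 8. The groups overlapped for all 8, where 12.7% of all tested probe sets were higher and 21.2% lower with no overlap. In non-acupoint mice all 8 means were lower, and for 7 members both mice lay below both controls, where 22.6% of all tested probe sets did so and 26.9% were higher with no overlap. Rgs2 was the exception. This was not particular to the members: 15 of the 22 medium spiny neuron markers were also lower with no overlap, with a median of -0.28. The differences in non-acupoint mice were -0.62 for Rgs9, -0.47 for Ppp1r1b, -0.38 for Adcy5, -0.36 for Pde1b, -0.31 for Pde10a, -0.30 for Gnal, -0.27 for Rgs4 and -0.14 for Rgs2. Their median was -0.34, against 0.01 over all tested probe sets, and it was -0.54 without non-acupoint mouse 1 and -0.16 without non-acupoint mouse 2.

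Limma called 0 members in either comparison, with adjusted p-values of 1 for acupoint mice and from 0.795 to 0.946 for non-acupoint mice. It called 0% of all tested probe sets in each. No member had an unadjusted p under 0.05 in the fit over all 8 arrays, against 1.91% and 6.05% of all tested probe sets. That fit shares 1 spread over the groups, and the SD of a member ran from 0.28 to 1.93 in MPTP mice and from 0.01 to 0.07 in controls. With only the non-acupoint and control arrays fitted, 4 members had an unadjusted p under 0.05, as did 13.1% of all tested probe sets. In that fit 0 members were called, with adjusted p-values from 0.266 to 0.58, and 2 probe sets in all. When the mean of the thalamus markers was a covariate, 7 of the 8 members had higher fitted values in non-acupoint mice and the median was 0.11, Rgs4 being the exception.

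**Figure D4:**
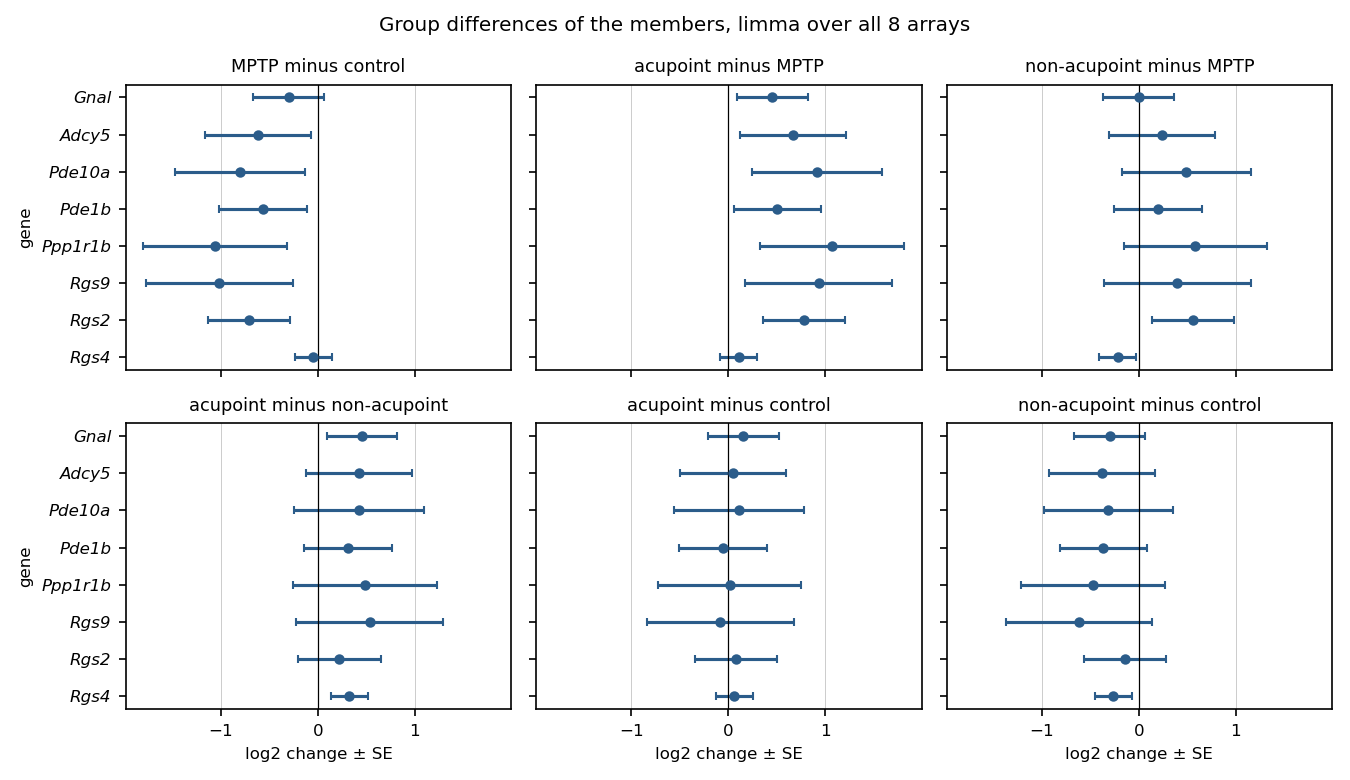
Log2 difference (x axis) of each gene (y axis) in 6 group comparisons, as points with bars of 1 standard error from limma over all 8 arrays. The bars are widest for Ppp1r1b and Rgs9 and narrowest for Rgs4, and Gnal in the comparison of non-acupoint with MPTP mice lies at 0.

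With all MPTP-treated mice together against controls, the 8 members had lower means by a median of -0.32, from -0.57 (Rgs9) to -0.08 (Rgs4). The groups overlapped for all 8, where 3.72% of all tested probe sets were higher and 3.56% lower with no overlap. Limma called 0 members (adjusted p = 0.979 to 0.981) and 0% of all tested probe sets. An unadjusted p under 0.05 was reached by 0 members, against 3.38% of all tested probe sets. A moderated F-test over the 4 groups also called 0 members (adjusted p = 0.923 to 0.926), where it called 0% of all tested probe sets and 3.71% had an unadjusted p under 0.05. Without MPTP mouse 1 the median for all MPTP-treated mice was -0.01, and with the thalamus marker covariate it was 0.06. Without MPTP mouse 2, with a single array left in the MPTP group, the F-test called 5 members and 518 probe sets in all (3.17%).

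The rest of the pathway was read from 8 further lists. No gene of any of them passed the adjusted threshold in any comparison, where 0% of all tested probe sets did. Many differences below rest on MPTP mouse 1. For Gpr6, Pde1a, Akap5, Akap12, Gnb4, Rgs3, Rgs14, Rgs20, Arpp19, Ppp1ca and Crtc1, among others, the MPTP mice lay on opposite sides of both controls. The receptors that feed into cAMP in striatal neurons had the list median nearest to that of the members. Of 11 receptor genes, 10 had lower means in MPTP mice, with a median of -0.61, and Drd1, Drd2 and Gpr6 are also among the medium spiny neuron markers above. The differences were -1.04 each for Gpr6 and Gpr52, orphan receptors that raise cAMP, and -0.10 for Htr4, a serotonin receptor, while Oprm1, the mu opioid receptor, was higher by 0.28. Gpr52 had log2 values of 10.88 and 10.99 in acupoint mice, 10.71 and 10.31 in non-acupoint mice, 8.63 and 11.29 in MPTP mice, and 10.96 and 11.04 in controls, so the low MPTP array was again the lowest.

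Other adenylyl cyclases did not share this profile. Of 8 probe sets, 7 had higher means in MPTP mice, with a median of 0.09. Adcy1, a calcium-stimulated cyclase of cortex and thalamus, had log2 values of 8.71 and 8.99 in acupoint mice, 8.46 and 9.29 in non-acupoint mice, 10.06 and 8.86 in MPTP mice, and 8.74 and 8.80 in controls. Its highest arrays were MPTP mouse 1 and non-acupoint mouse 2, the arrays richest in thalamus markers. Adcy8, also stimulated by calcium, differed by 0.40 and Adcy3 by less than 0.01. Adcy2 was the one cyclase with a lower mean, by -0.43 (SE 0.12, unadjusted p = 0.00811, adjusted p = 0.932), and both MPTP mice (9.14 and 9.19) lay below both controls (9.57 and 9.62).

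Among 17 probe sets of other phosphodiesterases, 9 had lower and 8 higher means in MPTP mice, with a median of -0.01. Pde1a differed by -0.97 and Pde2a, which is activated by cGMP, by -0.90, while the 2 probe sets of Pde4d differed by 0.31 (unadjusted p = 0.0462, adjusted p = 0.932) and 0.36. Pde2a had log2 values of 10.98 and 11.29 in acupoint mice, 10.93 and 10.69 in non-acupoint mice, 9.10 and 11.37 in MPTP mice, and 11.15 and 11.11 in controls. It was also among the 5 genes of the array closest to the members when MPTP mouse 1 was left out.

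Of 16 probe sets for protein kinase A subunits, inhibitors and anchors, 13 had lower means in MPTP mice, with a median of -0.11. Akap5, which anchors the kinase at synapses, differed by -1.20 and Prkar2b, a regulatory subunit, by -0.77, while the anchor gene Akap12 differed by 0.44 and Prkar2a by 0.11. The log2 values of Akap5 were 7.95 and 10.86 in MPTP mice and 10.55 and 10.67 in controls. Those of Prkar2b were 8.63 and 10.22 in MPTP mice and 10.16 and 10.22 in controls. Among other G protein subunits 14 of 20 were lower, with a median of -0.11. Gng7, the gamma subunit that partners Gαolf in the striatum, had log2 values of 11.12 and 11.51 in acupoint mice, 11.27 and 10.85 in non-acupoint mice, 9.36 and 11.63 in MPTP mice, and 11.42 and 11.31 in controls. Like Gnal, it was lowest in MPTP mouse 1, and its highest arrays were MPTP mouse 2 and acupoint mouse 2. Gnb4 differed by -0.51, Gnao1 by 0.10 and Gng11 by 0.30.

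Other RGS proteins and their anchors had higher means in 11 of 16 cases, with a median of 0.09. Rgs16 had log2 values of 8.20 and 7.46 in acupoint mice, 7.82 and 9.09 in non-acupoint mice, 9.64 and 6.71 in MPTP mice, and 7.66 and 7.55 in controls. It was highest where Rgs9 was lowest. Rgs3 differed by 0.40, Rgs14 by -0.48 and Rgs20 by -0.46. Of 20 probe sets for partners of DARPP-32 and related phosphoproteins, 15 had lower means, with a median of -0.08. Arpp19 differed by -0.49 and Ppp1ca, a catalytic subunit of protein phosphatase 1, by -0.42, while Cdk5, a kinase of DARPP-32, differed by 0.12. Ppp2r5d, a phosphatase 2A subunit that acts on DARPP-32, was higher by 0.30 (unadjusted p = 0.047, adjusted p = 0.932). The transcription factors of the CREB family and their coactivators were split, with 6 of 11 lower and a median of -0.02, from -0.29 for Crtc1 and -0.12 for Atf2 to 0.08 for Crebbp and 0.09 for Crtc2.

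Over all MPTP-treated mice against controls the same lists had medians from -0.29 (receptors) to 0.11 (other adenylyl cyclases). The genes that came to the ends of a list there, and not above, were Adcy4 at -0.002, Gna13 at 0.11, Rgs12 at -0.25, Ppp1r1a at -0.26, Ppp1r2 at 0.16, Oprd1 at -0.06, Creb3 at -0.11 and Ep300 at 0.21. None was called (limma adjusted p = 0.979 to 0.998).

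The genes outside the list whose values over the 8 arrays lay closest to the mean profile of the members were Gucy1a1, Foxo1, Alcam, Adamts3 and Caln1. Gucy1a1, a subunit of the nitric oxide receptor that makes cGMP, was nearest, at a root mean square distance of 0.06, against a median of 0.62 over all tested probe sets. Relative to its control mean it stood at -0.16 and 0.14 in acupoint mice, -0.12 and -0.44 in non-acupoint mice and -1.47 and 0.24 in MPTP mice. The distances of the other 4 were 0.07 to 0.08. Since MPTP mouse 1 dominates this measure, the search over the other 7 arrays is given too. It named Myo3b, Adamts3, Ddn, Pde2a and Gprin3, at distances from 0.03 to 0.05 against a median of 0.29, with Adamts3 in both sets. In MPTP mouse 1, not used in that search, Myo3b stood at -1.17, Adamts3 at -1.33, Pde2a at -2.04 and Gprin3 at -1.33. Ddn, a postsynaptic protein, stood at -2.51 there.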

How the data were processed

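The authors deposited 1 log2 value per probe set and array, made with Affymetrix Expression Console and RMA, per the submitters' processing notes. RMA corrects background, quantile-normalises arrays and summarises probes. Labelled cDNA came from 300 ng of total RNA, per the labels' protocols. A genome build is not given in the sources used here. The deposited values were used unchanged, and array medians lay between 6.02 and 6.12. Of 35557 probe sets, 21789 had 1 gene symbol, and those with a mean of at least 5.25 (the 25th percentile) were tested. One linear model over all 8 arrays was fitted with limma 3.58.1 in R 4.3.3 (4 residual and 2.94 prior degrees of freedom), with Benjamini-Hochberg adjustment over the 16342 probe sets, and every adjusted p comes from it unless another fit is named. An exact permutation test of 2 arrays against 2 cannot give a two-sided p below 0.333. The fit was tested on simulated data, with errors drawn independently for each probe set. Shifts shared by many genes of an array were not simulated, so that test does not cover them. The 11 alternatives tried (filters, shrinkage, normalisation, array weights, blocking, a covariate, left-out arrays) are given at the end. Promoter windows came from RefSeq.

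The text names every measured member, the 2 highest and 2 lowest genes of each of 8 pathway lists in 2 comparisons, the 5 genes nearest in profile, and the check genes Ttr and Bcl11b. Members, pathway lists and 12 marker lists were chosen with earlier results of these data known. The labels do not say that a mouse number is shared between groups, so samples were not paired. The number of arrays limits precision, and each p-value sets a difference against a spread between mice that is shared over the groups.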

Additional observations from a re-analysis of the deposited data

How the results depend on the processing

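With 2 mice a group, a single array decided most values. Leaving out each array in turn moved the median difference of the members from -1.51 to 0.29 for MPTP against control, from -0.26 to 1.57 for acupoint against MPTP, from -0.65 to 1.25 for non-acupoint against MPTP, from -0.16 to 0.23 for acupoint against control, from 0.20 to 0.67 for acupoint against non-acupoint, from -0.54 to -0.16 for non-acupoint against control and from -0.61 to -0.01 for all MPTP-treated mice. The members called ran from 0 to 7, 0 to 7 and 0 to 6 in the first 3 and from 0 to 5 for the F-test, the highest counts being without MPTP mouse 2, where 1607, 1453, 794 and 518 probe sets were called in all. For MPTP against control the range was -2.40 to 0.28 for Ppp1r1b, -2.38 to 0.35 for Rgs9, -1.46 to 0.0486 for Rgs2, -0.24 to 0.15 for Rgs4, -1.56 to 0.32 for Adcy5, -0.91 to 0.30 for Gnal, -1.98 to 0.37 for Pde10a and -1.37 to 0.25 for Pde1b. When the mean of the thalamus markers was a covariate, the median was -0.10 for MPTP against control and 0.34 for acupoint against MPTP, and it turned to 0.11 for non-acupoint against control and 0.0599 for all MPTP-treated mice. Rgs4 and Gnal then turned to 0.0693 and 0.077 for MPTP against control, and for non-acupoint against control Ppp1r1b turned to 0.21, Rgs9 to 0.0792, Rgs2 to 0.24, Adcy5 to 0.14, Gnal to 0.0393, Pde10a to 0.32 and Pde1b to 0.0517. The cause of these turns was not tested. The mouse number as a replicate block left 0 members called in each comparison, with the median for MPTP against control at -0.66. Deviations of same-numbered mice correlated between groups from -0.49 (MPTP with non-acupoint) to 0.40 (MPTP with acupoint). With 2 mice a group, these values cannot decide whether the numbers pair samples. Other filters, shrinkage, normalisations, array weights and fits of only the groups compared turned no median and called 0 members.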

Other observations

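Markers of other cell classes and of other regions were read in the same arrays, relative to the control mean. Cholinergic interneuron markers (5 probe sets) averaged -0.17 and -0.05 in acupoint mice, 0.12 and -0.16 in non-acupoint mice, and -1.38 and 0.03 in MPTP mice. Ependymal markers (10 probe sets), which mark the cells lining the ventricles, averaged 0.12 and -0.08 in acupoint mice, 0.12 and 0.32 in non-acupoint mice, and -0.43 and -0.27 in MPTP mice. Markers of septum, pallidum and hypothalamus (14 probe sets) averaged 0.05 and -0.23 in acupoint mice, 0.35 and -0.01 in non-acupoint mice, and -0.63 and -0.44 in MPTP mice.

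Glial and vascular markers stood nearer to the control mean in MPTP mouse 1 than the members, which averaged -1.54 there. Astrocyte markers (10 probe sets) averaged 0.05 and -0.09 in acupoint mice, 0.05 and 0.20 in non-acupoint mice, and 0.11 and -0.19 in MPTP mice. Oligodendrocyte markers averaged -0.06 and 0.04 in acupoint mice, -0.12 and 0.17 in non-acupoint mice, and 0.27 and -0.18 in MPTP mice. Microglia markers averaged -0.10 and 0.11 in acupoint mice, -0.15 and -0.09 in non-acupoint mice, and -0.35 and 0.06 in MPTP mice. Endothelial markers averaged -0.11 and -0.18 in acupoint mice, -0.02 and 0.13 in non-acupoint mice, and 0.06 and -0.03 in MPTP mice.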
